A study of Mus musculus with 2 samples.

Results

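The 45 genes described here build and run the mitotic spindle of the mouse: the kinases and cyclins that drive mitosis, the chromosomal passenger complex, the spindle checkpoint with its anaphase targets, the kinetochore, spindle motors, the cytokinesis machinery, and condensin with the other proteins that shape chromosomes. They were chosen by name, with no measured value in the rule, though earlier results of these data were known. All 45 symbols were found among the 43346 genes of the tables. The cells were MEL, an immortalized mouse erythroleukemia line that grows as red cell precursors arrested before maturation. Its polyadenylated RNA was sequenced single-end in 2 libraries, biological replicates 1 and 2 of a single group with no stated treatment or genotype change. No condition was compared with another, so the values describe the levels of these genes, their order and the spread between the replicates. Nothing in the labels says whether the replicates came from separate cultures or days. Levels are given in TPM (the deposited relative number of transcripts, corrected for length), and replicate differences as log2 ratios of scaled expected counts, replicate 1 over replicate 2.

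In mitosis, Cdk1 bound to cyclin B phosphorylates the proteins that condense chromosomes and build the spindle. Kinetochores assembled on centromeres then bind spindle microtubules, and those not yet attached keep the checkpoint on, which blocks Cdc20, an activator of the anaphase-promoting complex. Once every chromosome is attached, the complex marks cyclin B and securin for destruction, separase cuts cohesin, and the central spindle positions the ring that divides the cell. Many of these genes are transcribed late in the cell cycle, and mammalian promoters of this kind are known for the CHR (cell cycle genes homology region), bound by the MuvB and DREAM complexes close to the start site, and for CCAAT boxes bound by NF-Y a little upstream.

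Promoter sequence is shown first, for 1 gene of each of the 7 structures: the one with the highest mean TPM among those with both motifs within the printed window. Each is 150 bases, from 100 before to 50 after the transcription start, from RefSeq on GRCm38.p6, the assembly called mm10 in the deposited files, read 5′ to 3′ along the gene. Capitals mark the CHR letters TTTGAA or TTCGAA and the letters CCAAT on either strand, so that TTCAAA and ATTGG are the same motifs reversed. The windows lie at chr10:69352863-69353012 (minus strand) for Cdk1, chr4:124936868-124937017 (minus) for Cdca8, chr4:118437294-118437443 (minus) for Cdc20, chr5:30666786-30666935 (plus) for Cenpa, chr19:37376282-37376431 (plus) for Kif11, chr15:99651607-99651756 (minus) for Racgap1 and chr11:99024140-99024289 (minus) for Top2a.
Cdk1: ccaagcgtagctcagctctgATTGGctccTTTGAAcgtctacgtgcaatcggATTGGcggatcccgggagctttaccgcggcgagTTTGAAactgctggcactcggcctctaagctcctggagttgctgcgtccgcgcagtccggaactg
Cdca8: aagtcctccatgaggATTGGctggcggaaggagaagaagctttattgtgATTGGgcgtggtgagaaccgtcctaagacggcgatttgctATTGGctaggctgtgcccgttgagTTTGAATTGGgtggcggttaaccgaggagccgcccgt
Cdc20: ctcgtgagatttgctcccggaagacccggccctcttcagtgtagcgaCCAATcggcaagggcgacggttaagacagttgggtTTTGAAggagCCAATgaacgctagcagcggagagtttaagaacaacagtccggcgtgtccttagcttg
Cenpa: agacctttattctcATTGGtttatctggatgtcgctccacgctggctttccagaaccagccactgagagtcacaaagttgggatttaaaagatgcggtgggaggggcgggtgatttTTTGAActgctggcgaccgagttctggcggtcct
Kif11: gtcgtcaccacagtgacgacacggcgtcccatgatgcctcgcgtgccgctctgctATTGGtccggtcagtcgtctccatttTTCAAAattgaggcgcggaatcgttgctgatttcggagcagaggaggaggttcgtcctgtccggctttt
Racgap1: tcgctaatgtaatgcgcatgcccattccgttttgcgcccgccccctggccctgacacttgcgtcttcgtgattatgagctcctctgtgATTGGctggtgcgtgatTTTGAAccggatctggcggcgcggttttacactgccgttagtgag
Top2a: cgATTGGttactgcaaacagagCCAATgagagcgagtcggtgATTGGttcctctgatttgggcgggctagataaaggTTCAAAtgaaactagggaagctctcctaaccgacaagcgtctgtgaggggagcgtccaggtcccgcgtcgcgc
The CHR letters began at 14 from the start in Cdca8, 17 in Cenpa, 6 in Racgap1, -18 in Cdc20, -19 in Kif11 and -23 in Top2a, counting the start base as 1 and the base before it as -1. Cdk1 held them at -71 and -15. In Cdca8 the last CCAAT letters, at 19, share a base with the CHR letters, so their capitals run together.

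Of the 38 genes with an entry in the RefSeq promoter table (250 bases before to 50 after the start), 28 held the CHR letters, which is 73.7%, against 21.7% of all 27025 genes of the table. The letters CCAAT were found in 28 of the 38, against 41.1% of all genes, and 25 of the 38 (65.8%) held both, against 9.65% of all genes. Among the 5459 genes of the table that are protein-coding and reached 10 TPM in both replicates, 16.6% held CHR letters, 43.5% held CCAAT letters and 8.37% held both. The position differed as well: 25 of the 38 genes had CHR letters beginning between -50 and 50, against 6.12% of all genes and 4.71% of the genes expressed at that level. Both motifs were absent from the windows of Birc5, Mad2l1, Pttg1, Nuf2, Nusap1, Cit and Ncaph. By structure, 6 of 9 checkpoint and anaphase genes, 5 of 6 central spindle genes and 5 of 6 condensin and chromosome genes with an entry held the CHR letters. Ccna2, Aurkb, Incenp, Spc24, Tpx2, Kif20a and Smc4 had no entry. These are matches of letters in reference sequence and were not measured as sites of binding.

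**Figure D1:**
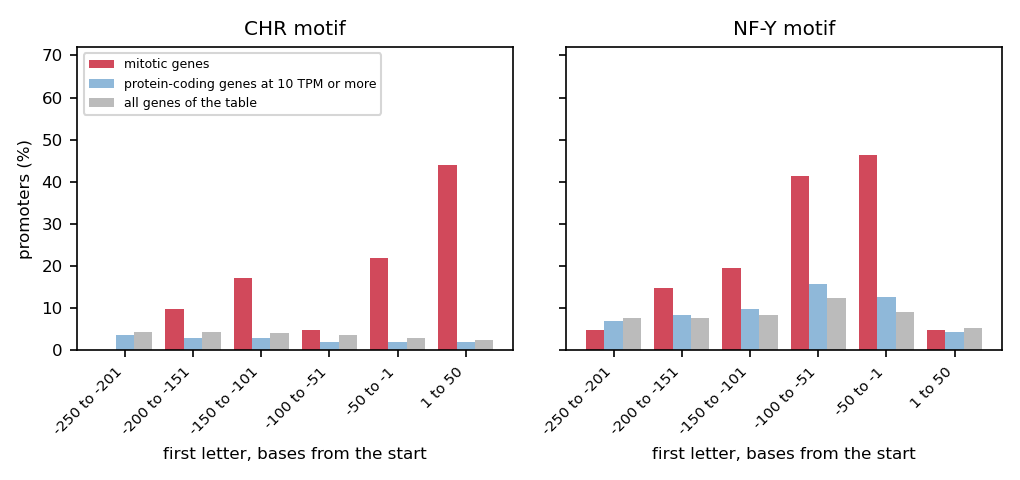
Share of promoters (vertical axis, %) in which the CHR motif (left) or the CCAAT letters bound by NF-Y (right) begin in each 50-base step from the transcription start (horizontal axis), for 41 promoters of 38 mitotic genes, 6930 promoters of protein-coding genes at 10 TPM or more in both replicates and all 32851 promoters of the table. CHR letters began within the first 50 transcribed bases in 43.9% of the mitotic promoters and 2.46% of all promoters, and CCAAT letters between -50 and -1 in 46.3% and 9.03%.

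All 45 genes stood at 10 TPM or more in both replicates, a level reached by 31.4% of the 21474 protein-coding genes, of which 46.8% reached 1 TPM. The lowest by mean, Cit, lay at percentile 74.5 of protein-coding genes. Their median TPM was 94.9 in replicate 1 and 74.3 in replicate 2, and 18 of the 45 had a mean of at least 100 TPM, against 6.76% of protein-coding genes. Together they took 1.08% of the 67735380 expected counts on genes in replicate 1 and 0.825% of the 79923143 in replicate 2. Top2a, Cenpa and Mki67 led the order, and Cit, Ttk and Cenpe ended it. In that order the replicate values of each gene overlapped those of the next at all 44 steps, so no neighbours were told apart. In bulk RNA a larger share of cells in mitosis and more RNA per mitotic cell cannot be told apart.

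**Figure D2:**
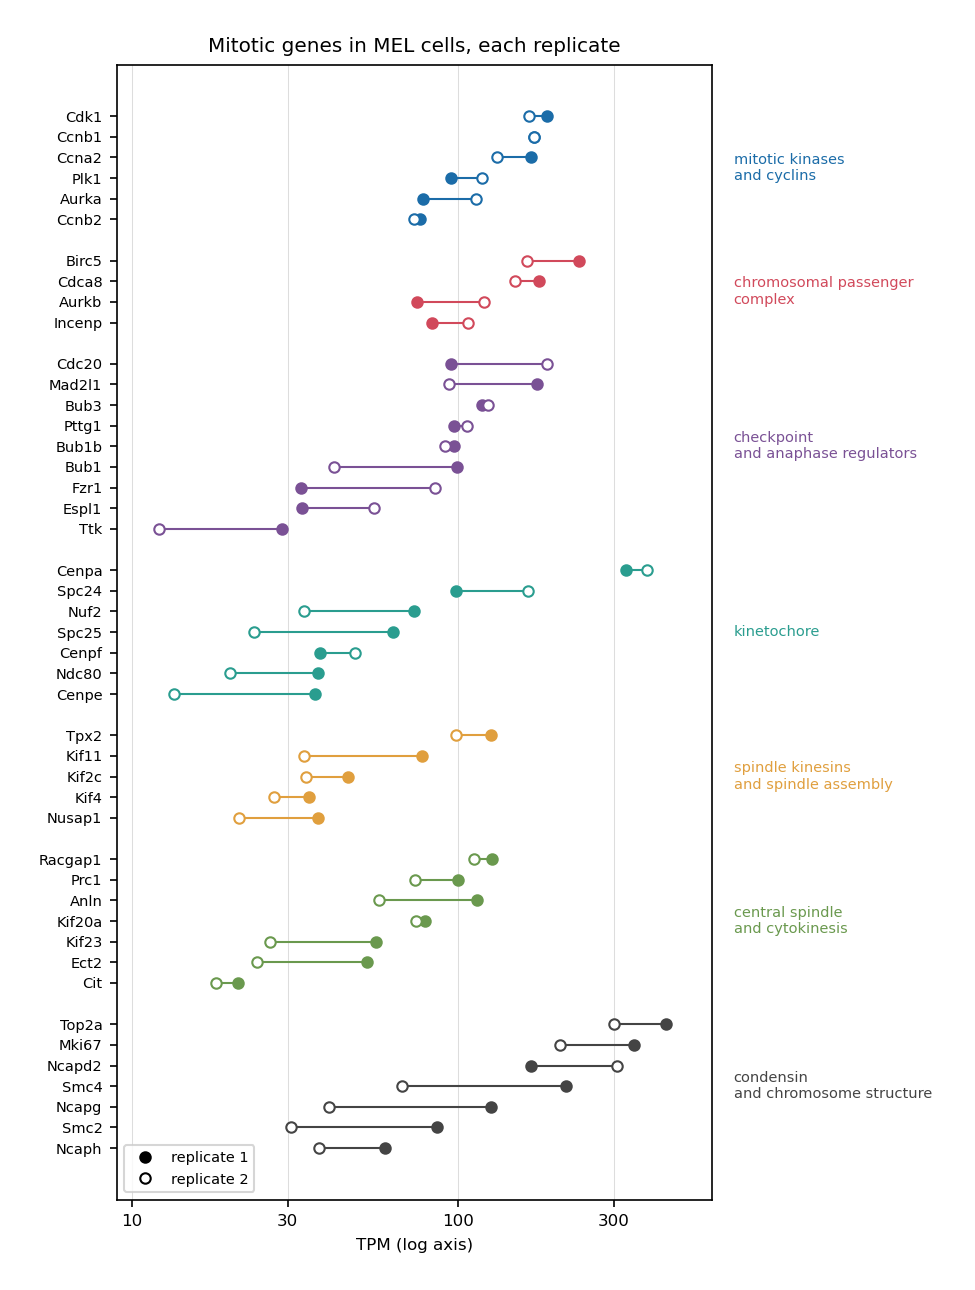
TPM (horizontal, log axis) of each of the 45 genes in replicate 1 (filled) and replicate 2 (open), grouped by structure and ordered by mean within it; a line joins the replicates. Every point lies above 10 TPM, and the widest gaps between replicates are those of Smc4, Ncapg and Smc2 in the condensin group.

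The kinases and cyclins of mitotic entry had a median of 131 TPM in replicate 1 and 125 in replicate 2. Cdk1, the kinase at the head of the pathway, stood at 187 and 165 TPM in replicates 1 and 2. Its partner cyclin B1 (Ccnb1) stood at 171.6 and 171.3, and the ratio of Cdk1 to Ccnb1 was 1.09 and 0.963, so neither was higher in both replicates. Cyclin B2 (Ccnb2) was lower, at 76.6 and 73.1 TPM, and the level of Ccnb1 was 2.24 and 2.34 times that of Ccnb2 in replicates 1 and 2. Cyclin A2 (Ccna2), which serves S phase and mitotic entry, stood at 167 and 132 TPM. Plk1, the kinase of centrosome maturation and mitotic exit, stood at 95.1 and 118.5 TPM, and Aurka, which activates Plk1 and acts at spindle poles, at 78.4 and 113.3. These last 2 were higher in replicate 2. The equal TPM of Ccnb1 held over the whole gene: retained-intron transcripts took 20.9% of it in replicate 1 and 44.4% in replicate 2, its coding transcripts stood at 136 and 95.2 TPM, and its log2 ratio of scaled counts was 0.38. On coding transcripts Ccnb1 was 1.77 and 1.30 times Ccnb2, and Cdk1 was 0.952 and 1.46 times Ccnb1.

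The 4 genes of the chromosomal passenger complex, which corrects faulty kinetochore attachments and later moves to the central spindle, stood between 75.0 and 234.5 TPM. Survivin (Birc5) stood at 234.5 and 162 TPM in replicates 1 and 2, and borealin (Cdca8) at 178 and 149. The kinase Aurkb stood at 75.0 and 120.4, and its scaffold Incenp at 83.1 and 107.3. Over the whole gene both stood higher in TPM than kinase and scaffold in both replicates, with Birc5 at 2.82 and 1.51 times Incenp and Cdca8 at 2.13 and 1.39 times. A processed transcript of 712 bases, Cdca8-204, held 47.3% and 7.17% of the Cdca8 level, and on coding transcripts Cdca8 was 1.06 and 1.28 times Incenp. Aurkb and Incenp had no constant order (ratio 0.903 and 1.12), and neither did Aurkb and Aurka (0.958 and 1.06), although on coding transcripts Aurkb was the lower of each pair in both replicates, at 0.725 and 0.981 times Incenp and 0.779 and 0.940 times Aurka. The Birc5 level rests on the effective lengths used by the authors. By expected counts per kilobase of the longest coding transcript, an order computed after the data were seen, Birc5 was place 27 of 45 instead of 5. Cdk1 was 25 instead of 6. Those longest transcripts have 3334 and 2886 bases. In replicates 1 and 2, the 947 bases of Birc5-201 held 91.6% and 85.0% of Birc5 counts. The 1253 bases of Cdk1-202 held 79.1% and 86.2% of Cdk1 counts.

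Among the checkpoint and anaphase genes the median was 97.0 TPM in replicate 1 and 91.2 in replicate 2. Mad2l1, the protein that closes around Cdc20 at the checkpoint, stood at 174 and 94.2 TPM in replicates 1 and 2. The checkpoint kinase Bub1 stood at 99.0 and 41.7, its relative Bub1b (BubR1), a subunit of the mitotic checkpoint complex, at 97.0 and 91.2, and their common partner Bub3 at 118 and 123. The kinase Ttk (Mps1), which starts the signal, was the lowest of the group at 28.9 and 12.1 TPM. Bub3 and Bub1b were thus close between replicates, while Mad2l1, Bub1 and Ttk were higher in replicate 1.

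The activators of the anaphase-promoting complex ran the other way. Cdc20, used in mitosis, had 94.9 TPM in replicate 1 against 187 in replicate 2, and Fzr1 (Cdh1), used at mitotic exit and in G1, at 33.0 and 85.0. Cdc20 was 2.87 and 2.20 times Fzr1, so the order of the activators was the same in both. Securin (Pttg1), the inhibitor of separase, stood at 97.2 and 106 TPM, and separase itself (Espl1) at 33.2 and 55.4, a ratio of 2.92 and 1.92.

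At the kinetochore, the centromeric histone H3 variant Cenpa was highest over the whole gene, at 328 and 381 TPM in replicates 1 and 2 (355 ± 37.2, SD, n = 2). Its coding transcripts stood at 157 and 125 TPM, below Spc24 in replicate 2. The Ndc80 complex, which grips the microtubule end, has 4 subunits: Nuf2 stood at 73.4 and 33.7 TPM, Ndc80 at 37.2 and 20, Spc25 at 63.0 and 23.7, and Spc24 at 98.9 and 163. Although these subunits form a complex of equal parts, their RNAs were unequal: Nuf2 was 1.97 and 1.68 times Ndc80, Spc25 was 1.69 and 1.18 times Ndc80, and Spc24 was 2.65 and 8.14 times Ndc80. Spc24 was the only subunit higher in replicate 2, and its ratio to its direct partner Spc25 was 1.57 in replicate 1 and 6.88 in replicate 2. The large coiled-coil motor Cenpe, which carries chromosomes to the plate, stood at 36.5 and 13.4 TPM. Cenpf, a large protein of the outer kinetochore, stood at 37.8 and 48.3 TPM, with a reversal between TPM and counts that is described with its transcripts.

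Of the spindle motors and assembly factors, Tpx2, which targets Aurora A to spindle microtubules, was highest at 127 and 98.3 TPM in replicates 1 and 2. Kif11 (Eg5), the motor that pushes spindle poles apart, stood at 77.6 and 33.7, Kif2c (MCAK), a microtubule depolymerase, at 46.0 and 34.3, and the chromokinesin Kif4 at 34.8 and 27.4. Nusap1, a microtubule bundling protein, stood at 37.1 and 21.3 TPM. All 5 were higher in replicate 1 in TPM, and in scaled counts as well.

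Central spindle and cytokinesis genes had a median of 79.3 TPM in replicate 1 and 57.1 in replicate 2. Centralspindlin consists of the kinesin Kif23 (MKLP1) and the GTPase-activating protein Racgap1, and Racgap1 was higher than Kif23 in both replicates, with 127 and 112 TPM against 56.0 and 26.5. Ect2, the exchange factor for RhoA that centralspindlin recruits, stood at 52.8 and 24.2 TPM, and Anln (anillin), a scaffold of the contractile ring, at 114 and 57.1. Prc1, which bundles antiparallel microtubules together with Kif4, stood at 100.2 and 74.0 TPM, 2.87 and 2.70 times Kif4. Kif20a (MKLP2), which carries the passenger complex to the midzone, stood at 79.3 and 74.3, and citron kinase (Cit), which acts at the midbody, at 21.2 and 18.1. Prc1 to Kif4 was among the steadiest of the 25 ratios computed (log2 ratio 1.48 ± 0.06, SD, n = 2).

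The condensin and chromosome group had a median of 167 TPM in replicate 1 and 67.3 in replicate 2, so without replicate 1 its median of 141 over both falls by more than 1.5 times. Top2a, the topoisomerase that untangles sister chromatids, stood at 433 and 301 TPM in replicates 1 and 2, and Mki67 (Ki-67), which coats mitotic chromosomes, at 347 and 206. The condensin ATPases were Smc4 at 215 and 67.3 TPM and Smc2 at 86.0 and 30.8. Smc4 was 2.49 and 2.18 times Smc2 although each condensin holds 1 of each. The regulatory subunits of condensin I were Ncapg at 126 and 40.3 TPM, Ncaph at 59.9 and 37.4, and Ncapd2 at 167 and 308. Ncapd2 alone of the 5 subunits was higher in replicate 2, and its ratio to Ncapg was 1.32 in replicate 1 and 7.64 in replicate 2. On protein-coding transcripts alone, a comparison added after the data were seen, that ratio was 0.570 and 2.44, so Ncapg was then higher in replicate 1, and the ratio of Smc4 to Smc2 was 1.84 and 1.44.

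Condensin II shares Smc2 and Smc4 and has its own regulatory subunits. Ncapd2 of condensin I was 6.50 and 15.2 times Ncapd3 of condensin II, but 2.28 and 3.77 times on coding transcripts alone. Ncapg was 1.91 and 1.03 times Ncapg2, and 1.55 and 0.796 times on coding transcripts, so their order was not constant. For the kleisin subunits the order was turned round: Ncaph was 0.745 and 0.313 times Ncaph2, and 0.813 and 0.554 times on coding transcripts. Top2a was 5.67 and 11.6 times its paralog Top2b, which acts outside mitosis and stood at 76.3 and 25.8 TPM, and 4.42 and 5.29 times on coding transcripts.

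Transcript estimates bear on several of these levels. Of the 45 genes, 12 had a single listed transcript and 33 had more; in 27 of the 33 the same transcript was most abundant in both replicates, and in 6 (Cenpf, Spc25, Prc1, Smc2, Ncapd2 and Top2a) it was not. Protein-coding transcripts held at least 80% of TPM in both replicates in 17 of the 33, and at least 80% of expected counts in 26. TPM gives a short transcript as much weight as a long one, so a few reads on a short model weigh heavily. The division between transcripts is the authors' model estimate.

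Cenpf shows this most. Its full-length transcript Cenpf-204 (11130 bases) held 85.7% of the gene's TPM in replicate 1 and 27.8% in replicate 2, whereas Cenpf-202, a model of 358 bases, held 5.66% and 71.6%. By expected counts Cenpf-204 held 97.3% and 92.7%. The gene had 17015 counts in replicate 1 and 9439 in replicate 2, a log2 ratio of scaled counts of 1.21, while its TPM was higher in replicate 2. Cdca8, Racgap1 and Cit likewise had TPM and scaled counts that differed in opposite directions.

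In Top2a the coding Top2a-201 stood at 327 and 134 TPM in replicates 1 and 2, and a processed transcript of 803 bases, Top2a-207, at 55.4 and 147.8. On the coding transcript alone the replicates therefore lay further apart than on the whole gene. In Ncapd2, retained-intron transcripts held 63.5% and 75.2% of TPM, and the coding transcripts held 35.1% and 24.7% (58.6 and 76.2 TPM) with 78.0% and 69.2% of counts. In Cenpa, transcripts annotated for nonsense-mediated decay held 41.6% and 56.1% of TPM, and coding ones 47.9% and 32.9%. The replicate order of Cenpa was thus higher in replicate 2 over the gene and higher in replicate 1 on its coding transcripts. In Smc2 the near-equal coding transcripts Smc2-201 and Smc2-202 held 46.1% and 53.6% in replicate 1, and 94.5% and 3.54% in replicate 2.

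**Figure D3:**
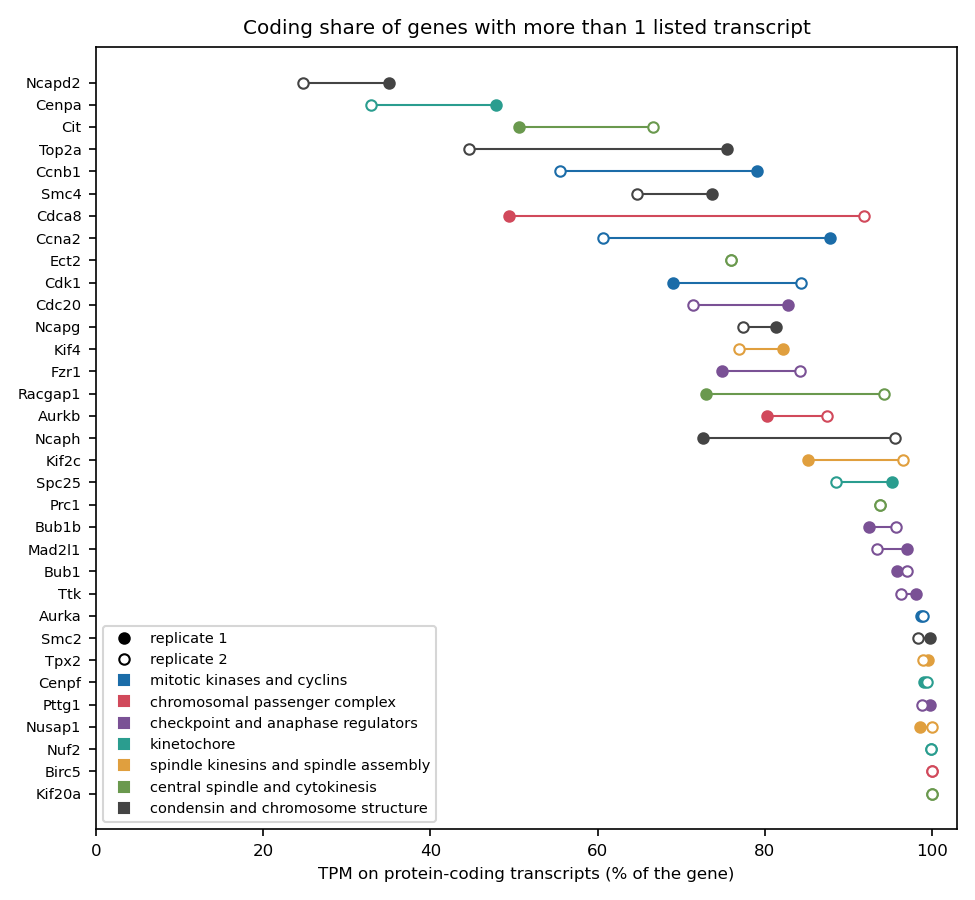
Share of each gene's TPM on protein-coding transcripts (horizontal axis, %) in replicate 1 (filled) and replicate 2 (open), for the 33 genes with more than 1 listed transcript, coloured by structure. Ncapd2 (35.1% and 24.7%) and Cenpa (47.9% and 32.9%) lie lowest, and Cdca8 (49.5% and 91.8%) has the widest gap.

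Between the replicates, 15 of the 45 genes differed by at least 2-fold in scaled counts at an adjusted p under 0.05 (two-sided exact binomial test, Benjamini-Hochberg adjustment over 15251 genes), where 19.7% of all tested genes did. Of the 15, 14 were higher in replicate 1, a direction called in 12.1% of all tested genes, and 1 was higher in replicate 2, a direction called in 7.63%. The test compares these 2 libraries and covers counting error only. At these depths it called small differences too: 44 of the 45 had an adjusted p under 0.05, as did 77.7% of all tested genes, and Cdk1 was the exception with an adjusted p of 0.463. With a dispersion estimated from the spread of both libraries (edgeR's exact test, biological coefficient of variation 0.419), 0 of the 45 were called. By that test 0 of them had an unadjusted p under 0.05, and 0.984% of all genes were called. Its dispersion holds the same difference between the 2 libraries that is tested. Few calls could therefore arise, and the result cannot judge the binomial calls.

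The called genes lay in 5 of the 7 structures. They were 4 of 7 kinetochore genes (Cenpe, Cenpf, Nuf2 and Spc25) and 4 of 7 condensin and chromosome genes (Smc2, Smc4, Ncapg and Top2a). Also called were 3 of 7 central spindle genes (Kif23, Ect2 and Anln) and 3 of 9 checkpoint and anaphase genes (Ttk, Bub1 and Fzr1). Among the 5 spindle motors and assembly factors, 1 was called (Kif11). None of the 6 kinases and cyclins and none of the 4 passenger genes was called by the binomial test, although 9 of these 10 had an unadjusted p under 0.05. The largest ratio was that of Ncapg (chromosome 5, 45669919-45700546), with 19127 counts in replicate 1 and 7494 in replicate 2 and a log2 ratio of 1.71 (95% exact interval 1.67 to 1.75, counting error only). Smc4 (chromosome 3, 69004738-69034623) had 35607 and 14896 counts and a ratio of 1.62 (1.59 to 1.64), and Smc2 1.50 (1.46 to 1.53). Cenpe, Spc25 and Ttk followed at 1.45, 1.33 and 1.26. Fzr1 (chromosome 10, 81366222-81378516) was the called gene higher in replicate 2, with 3988 and 11706 counts and a ratio of -1.19 (-1.25 to -1.14). Cdc20 at -0.86, Aurkb at -0.75, Espl1 at -0.73, Spc24 at -0.72 and Ncapd2 at -0.56 came next and stayed under 2-fold. Anln, at 1.01, stood just past the 2-fold limit and Mad2l1, at 0.92, just short of it.

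The order of these ratios followed the GC content of the transcripts. Over the 45 genes Pearson's r between GC content and log2 ratio was -0.94 and Spearman's rho -0.94, as a description across genes that share the same 2 libraries. Across all 15161 tested genes with a known GC content r was -0.57 and rho -0.77, and across the 6741 of them that are protein-coding and reached 10 TPM in both replicates r was -0.87. The 45 had a median GC content of 48.1%, from 39.2% in Smc4 to 59.9% in Fzr1, against 50.4% over all tested genes. Of the 15 genes with the lowest GC content (39.2% to 44.1%), all 15 were higher in replicate 1 and 12 were called, with a median log2 ratio of 1.21. Of the 15 with the highest (50.3% to 59.9%), 12 were higher in replicate 2, 1 was called, and the median was -0.36. The GC trend of all tested genes crossed these values: it stood at 1.11 at 40% GC, 0.02 at 50% and -0.62 at 56%.

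**Figure D4:**
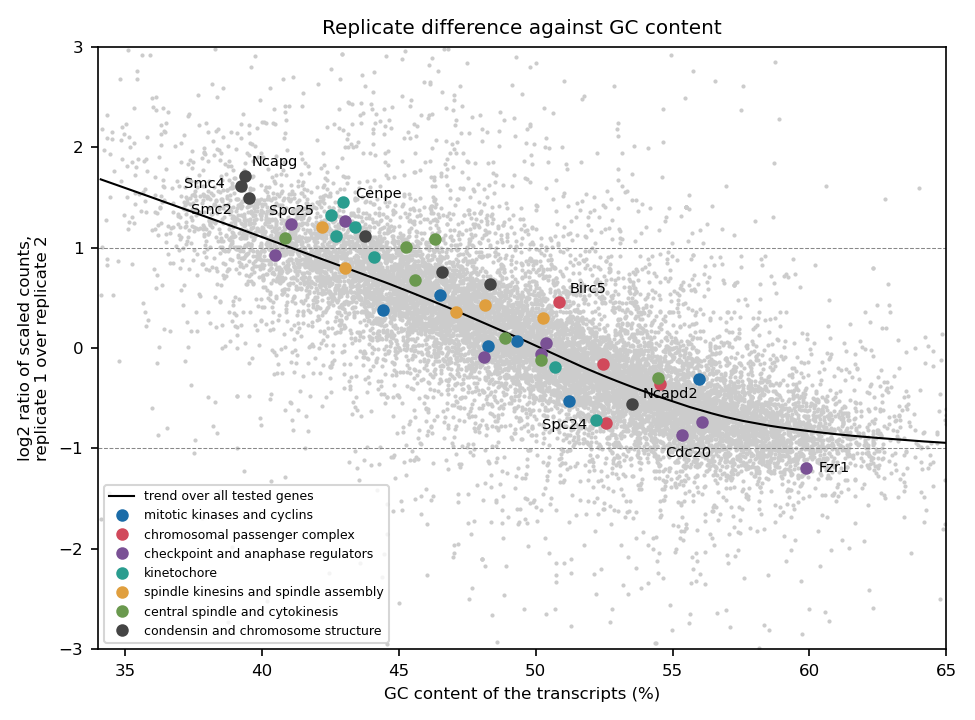
Log2 ratio of scaled counts, replicate 1 over replicate 2 (vertical axis), against GC content of the transcripts (horizontal axis, %), for all tested genes within the plotted range (grey), their trend (black line) and the 45 mitotic genes coloured by structure; dashed lines mark 2-fold. Smc4, Ncapg and Smc2 lie at the upper left near 39% GC, and Fzr1 at the lower right near 60%.

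Partners of 1 complex fell on opposite ends of that trend. Spc25 transcripts had 42.5% GC and Spc24 transcripts 52.2%; Smc4 had 39.2% and Ncapd2 53.5%. Stretches of 120 coding bases show the contrast in coding sequence. Each is the first window in frame whose GC content is nearest to that of its whole coding sequence. They come from the GENCODE M21 transcripts Spc25-201 (chromosome 2, coding bases 25 to 144, 39.2% GC), Spc24-201 (chromosome 9, bases 94 to 213, 60.0%), Smc4-202 (chromosome 3, bases 166 to 285, 38.3%) and Ncapd2-201 (chromosome 6, bases 22 to 141, 54.2%), with G and C in capitals.
Spc25: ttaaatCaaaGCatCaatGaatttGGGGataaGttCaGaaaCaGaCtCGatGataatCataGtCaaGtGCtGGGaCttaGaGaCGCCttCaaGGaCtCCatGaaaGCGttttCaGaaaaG
Spc24: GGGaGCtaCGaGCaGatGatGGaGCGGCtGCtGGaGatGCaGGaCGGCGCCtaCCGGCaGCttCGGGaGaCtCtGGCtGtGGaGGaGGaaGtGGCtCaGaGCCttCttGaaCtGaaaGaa
Smc4: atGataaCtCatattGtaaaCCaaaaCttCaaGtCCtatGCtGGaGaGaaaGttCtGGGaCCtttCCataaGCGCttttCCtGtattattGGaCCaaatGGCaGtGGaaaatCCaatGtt
Ncapd2: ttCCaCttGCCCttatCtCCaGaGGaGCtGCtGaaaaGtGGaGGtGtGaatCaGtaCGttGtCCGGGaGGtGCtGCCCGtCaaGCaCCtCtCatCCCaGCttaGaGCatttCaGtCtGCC
The log2 ratios of these genes, in the order printed, were 1.33, -0.72, 1.62 and -0.56. The Spc25 and Smc4 stretches are mostly lower case, the Spc24 stretch mostly capitals. In Spc24-201 the coding sequence had 60.4% GC and the whole transcript 52.2%, and in Spc25-201 39.1% and 41.9%. The stretches of these partners thus lie further apart in GC content than their transcripts. For Smc4-202 the values were 38.4% and 39.0%, and for Ncapd2-201 53.9% and 54.0%.

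With the GC trend of all tested genes taken out, 0 of the 45 genes remained past 2-fold, where 7.58% of all tested genes were called (4.06% higher in replicate 1 and 3.52% higher in replicate 2), although 42 of the 45 still had an unadjusted p under 0.05. Ncapg then stood at 0.54, Smc4 at 0.43, Smc2 at 0.34, Fzr1 at -0.37 and Spc24 at -0.47. Cenpe at 0.64, Kif23 at 0.63 and Birc5 at 0.55 had the largest remaining excess in replicate 1, and Spc24, Aurkb at -0.47 and Aurka at -0.40 the largest in replicate 2. The median absolute log2 ratio of the 45 was 0.72 as counted and 0.28 less the trend, against 0.59 and 0.24 over all tested genes. Over the 6741 protein-coding genes at 10 TPM or more in both replicates it was lower, at 0.52 and 0.18. The median remainder, with its sign, was 0.13 for the 45 and -0.001 for those 6741. The SD of the remainder was 0.31 for the 45, 0.32 for those 6741 and 0.89 over all tested genes. The 7.58% thus comes from a wider spread than that of genes at this level, and the share called among the 6741 was not computed. A slope was still left among the 45, with r at -0.51 between GC content and what remained, and the median remainder of the 15 genes lowest in GC was 0.34. Length moved with the ratios less closely: rho between transcript length and log2 ratio was 0.37 over the 45, and with the length trend taken out in place of the GC trend 13 were called, 12 of them among the 15. What makes GC content and the ratios move together was not tested.

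**Figure D5:**
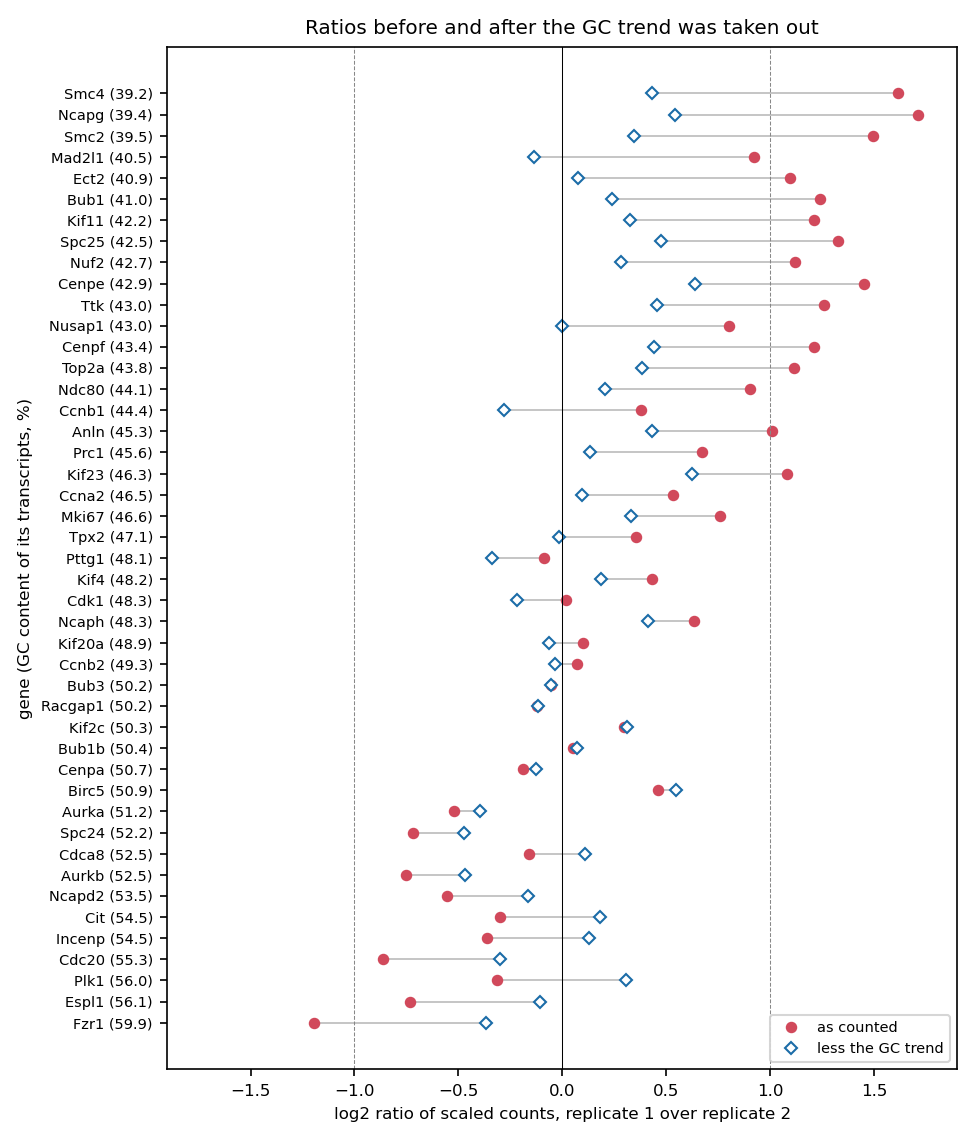
Log2 ratio of scaled counts, replicate 1 over replicate 2 (horizontal axis), of each of the 45 genes as counted (red points) and less the GC trend of all tested genes (open diamonds), ordered down the page from the lowest to the highest GC content (in brackets, %); dashed lines mark 2-fold. As counted, 15 genes lie past 2-fold, and less the trend none does.

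By list, other mitotic genes were expressed in the same cells at medians below the 87.1 TPM of the 45 together. Within the 45, the kinetochore group had a median of 43.3 TPM and the spindle motors and assembly factors 40.1. Both lay below the 52.5 TPM of the further checkpoint genes given here. Of 30 further kinetochore genes, 28 reached 10 TPM in both replicates, with a median of 27.1 TPM: Pmf1 of the Mis12 complex at 198 ± 97.7 (SD, n = 2), Zwint at 169 ± 9.50 and Zwilch at 65.3 ± 3.73 were highest, and Cenpl at 14.0 ± 1.77, Cenpt at 14.7 ± 5.10 and Cenpc1 at 15.5 ± 8.55 lowest. Of these 30, 7 were called higher in replicate 1, where 12.1% of all tested genes were, and 0 higher in replicate 2, where 7.63% were, by the binomial test. Less the GC trend only Cenpw was called, higher in replicate 2 at -1.23. Of 20 checkpoint genes and subunits or partners of the anaphase-promoting complex, 19 reached 10 TPM, with a median of 52.5 TPM: the ubiquitin-conjugating enzymes Ube2s at 459.5 ± 66.3 and Ube2c at 209 ± 95.3 and the subunit Anapc5 at 190.0 ± 3.71 led them. Anapc10 was lowest at 7.97 ± 3.28. Of the 20, 2 were called, both higher in replicate 1, where 12.1% of all tested genes were, and 0 less the GC trend.

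Of 19 further spindle genes, 17 reached 10 TPM in both replicates (median 35.7 TPM). They ran from Tacc3, a centrosomal partner of Aurora A, at 158 ± 45.5 down to Fam83d at 3.23 ± 0.948. Of the 19, 4 were called, all higher in replicate 1, where 12.1% of all tested genes were (19.7% in either direction), and 0 less the GC trend. Of 12 genes of mitotic entry, 11 reached 10 TPM in both replicates (median 31.7). They were led by the PP2A inhibitors Arpp19 at 224 ± 69.6 and Ensa at 90.4 ± 2.84 with the kinase Pbk at 65.4 ± 20.9. Mastl, the kinase that activates both inhibitors, was lowest at 8.47 ± 3.42. Of these 12, 2 were called higher in replicate 1 and 1 higher in replicate 2 (12.1% and 7.63% of all tested genes), and 0 less the GC trend. Of 7 genes of condensin II and chromosome arms, 6 reached 10 TPM in both replicates (median 24.6). Ncaph2 was highest at 100.1 ± 27.8, and the shugoshin Sgo2a, a protector of centromeric cohesion, lowest at 14.1 ± 7.52.

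Of 7 paralogs, 5 were at or near 0. The germ-line cyclins Ccna1 and Ccnb3 and the kinase Plk2 had 0 counts in both replicates, where a count of 0 allows up to 3 counts, or 4.43e-06% of the counts in replicate 1 and 3.75e-06% in replicate 2. Aurkc had 1 and 0 counts, and Plk5 had 6 and 17. Plk3 stood at 4.73 and 10.4 TPM in replicates 1 and 2. Of this family list, Top2b was the single gene above 10 TPM in both replicates.

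The erythroid label was checked against markers: all 8 erythroid markers stood above 10 TPM in both replicates (summed level 1047 and 1798 TPM in replicates 1 and 2), among them Gata1 at 163 and 376 TPM. The 4 macrophage markers summed to 4.82 and 15.1 TPM, nearly all of it Cd68, with Adgre1 and Lyz2 at 0 or 1 count, and Cd3e was at 0 counts in both replicates. The 3 lymphoid markers summed to 0.0900 and 0.490 TPM and the 5 endothelial and fibroblast markers to 1.59 and 2.20. The erythroid sum was higher in replicate 2, although Tfrc, at 178 and 80.7 TPM, was higher in replicate 1. These 8 markers had a median GC content of 56.0%, and 4 were called, all higher in replicate 2, where 7.63% of all tested genes were. Less the GC trend 0 of the 8 were called by the same binomial test, against 7.58% of all tested genes. The summed level of the 45 mitotic genes was 5103 TPM in replicate 1 and 4384 in replicate 2. Exons of some mitotic genes overlap a neighbour on the opposite strand, and the use of strand is not given in the sources used here: 29.3% of the exon bases of Kif20a lie in Cdc23, 15.1% of Kif4 in Pdzd11, 13.4% of Ncapg in Lcorl, 12.5% of Ccna2 in Exosc9 and 11.1% of Prc1 in Rccd1. The division of reads at these 5 genes is uncertain. Smaller overlaps were found at other genes, the largest of them at Plk1 (7.09%). On the same strand, Ncapd2 shares 3.78% of its exon bases with Scarna10 and 3.75% with Gm28967, and Top2a shares 1.35% with Gm23451.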

How the data were processed

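Polyadenylated RNA of MEL cells was sequenced single-end in 2 biological replicates. Per the file headers and the accompanying text files, the authors aligned reads to mm10 and quantified genes and transcripts with GENCODE M4; the sources used here do not name the aligner, the quantifier or the use of strand. Deposited expected counts estimate the reads of each gene, the deposited TPM and FPKM were corrected by the authors for effective transcript length and depth, the deposited percent column gives each transcript's share of its gene, and the deposited score columns describe the uncertainty of read assignment.

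Spike-ins and 26248 short features, which took 0.0574% and 0.131% of expected counts in replicates 1 and 2, were left out. Symbols, types and coordinates came from GENCODE M21 on mm10. The 45 genes, their 7 structures, the other lists and the 25 gene pairs were chosen with earlier results of these data known. All 45 genes are named; of other lists up to 3 highest and 3 lowest by mean TPM and all paralogs. Transcripts beyond the most abundant of each gene, the gene Cenpw and the genes with large remainders after the GC trend were named after their values were seen.

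Genes whose rounded expected counts summed to 20 or more over both replicates were tested with an exact binomial test (two-sided, conditional on the sum) on TMM-scaled library sizes (edgeR 4.0.16), with Benjamini-Hochberg adjustment over 15251 genes; called means adjusted p under 0.05 and at least 2-fold. Log2 ratios used a prior count of 0.5 and TPM ratios a pseudocount of 0.1. GC content of a gene was the mean over its M21 transcripts weighted by expected counts, known for 15161 genes, and the trend was a lowess curve (fraction 0.3). Alternatives were DESeq2 1.42.0 size factors, library totals, other count and TPM minimums, FPKM, posterior mean TPM, pseudocount 1, protein-coding genes alone, edgeR's exact test, removal of the GC or length trend, each replicate left out, and, added after the data were seen, counts per kilobase of the longest coding transcript and TPM ratios on coding transcripts. The comparison was tried on simulated replicates (15161 genes) with Poisson counts, that is, counting error and no other spread between libraries. It recovered 85 of 100 3-fold changes and 98 of 100 5-fold changes, with 2 false calls among 14961 genes. With the measured GC trend put in there were 1443 false calls, and 0 after removal by the same lowess step. These figures do not cover the spread between real replicates, and the GC case checks the removal step alone. Statistics ran in R 4.3.3 and Python 3.11.15 with statsmodels 0.14.6, scipy 1.17.1 and pandas 2.3.3; plots used matplotlib 3.10.9.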

Additional observations from a re-analysis of the deposited data

How the results depend on the processing

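All 45 genes stood at 10 TPM or more in both replicates with FPKM or posterior mean TPM in place of TPM, and 26 stood at 50 TPM or more. Either replicate alone also gives 45, which follows from the count in both and is no separate check. The count of 15 genes past 2-fold between replicates was 0 less the GC trend. It was also 0 with edgeR's exact test, whose dispersion holds the difference under test. It was 15 with no filter on low counts, a summed count of at least 200 or protein-coding genes alone. Those filters leave each gene's ratio and unadjusted p unchanged and alter only the adjustment, so they do not test the count. The count was 15 with DESeq2 size factors, 13 less the length trend and 10 with library totals. Library totals moved the median log2 ratio of all tested genes to -0.14 from -0.02. They also moved the split of the 45 to 26 higher in replicate 1 and 19 higher in replicate 2, against 30 and 15. No called gene changed direction under any of these settings. The median TPM was 130.3 and 134.7 with replicate 2 and replicate 1 left out in turn for the passenger complex, 79.3 and 57.1 for central spindle and cytokinesis, and 167 and 67.3 for condensin and chromosome structure. A pseudocount of 1 or posterior mean TPM moved none of the 25 ratios beyond the replicate spread, and posterior mean TPM moved 1 of 45 gene levels and 2 of 33 transcript shares beyond it. Counts per kilobase of the longest coding transcript, on another scale, moved 27 of 45. TPM of coding transcripts alone, also chosen after the data were seen, turned 6 of the 25 ratios in at least 1 replicate and moved 9 by over 1.5 times, and no mean ratio of constant direction reversed. No paired analysis was possible because there is a single group, and with a replicate left out no replicate difference can be computed. Depth was not the limit for these genes, the lowest of which had 1772 counts in a library; with 2 libraries, spread between cultures could not be set apart from spread between libraries.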
